A study of Danio rerio with 4 samples.

Results

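The genes described here are 6 zebrafish genes through which blood vessels handle lipid: the fatty acid binding protein genes *fabp11a* and *fabp3*, the fatty acid translocase gene *cd36*, the lipase gene *lpl*, the lipase inhibitor gene *angptl4* and the high-density lipoprotein receptor gene *scarb1*. They were chosen by symbol, though with earlier results of these data known, and matched 7 of the 32520 rows of the count tables, because *lpl* was matched by 2 rows. Of these 7 rows, 5 had enough counts to enter the test across 17151 genes.

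The RNA came from *kdrl:EGFP*-positive cells sorted by fluorescence from ventricles of adult male and female zebrafish at 7 days post-amputation (dpa), with 2 libraries per group, described as biological replicates. Hearts of several fish were pooled for each sort. Fish of both groups carried *ubi:LoxP-DsRed-STOP-LoxP-dn-xbrg1* and *kdrl:EGFP*, and all were given 4-HT, the form of tamoxifen that activates CreER, starting 3 days ahead of the amputation. DNK fish also carried *kdrl:CreER*, so that 4-HT switched on a dominant-negative form of *Xenopus* Brg1, the ATPase of the SWI/SNF chromatin remodeling complex, and CtrlK fish were siblings without *kdrl:CreER*. The *kdrl* promoter is active in the endocardium as well as in coronary vessels, and it drove both the CreER and the EGFP used for sorting. An effect of CreER itself and an effect of *dn-xbrg1* cannot be told apart in this design. The age of the fish was not given in the sources used here, and reads of the *dn-xbrg1* transgene were not analysed.

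Heart muscle burns fatty acids that must first cross the vessel wall. Lipoprotein lipase, bound to the luminal face of capillary endothelium, releases fatty acids from triglyceride-rich lipoproteins, and Angptl4 inactivates this enzyme. In mammals, CD36 then takes up the fatty acids and FABP4 and FABP5 carry them through the endothelial cytoplasm, while FABP3 is the main carrier of cardiomyocytes. SCARB1 takes up cholesterol esters from high-density lipoprotein. In mice, a heterodimer of the transcription factors Meox2 and Tcf15 raises *Cd36* and *Lpl* in cardiac endothelium, and the nuclear receptor PPARγ raises *Cd36* and *Fabp4*.

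Total counts per library lay between 25189862 and 28770727. All 13 endothelial markers had counts in every library, and their summed share of counts was 0.625% and 0.710% in CtrlK and 0.636% and 0.640% in DNK. Within this list *kdrl* (log2 fold change −0.47, SE 0.07), *pecam1* and *egfl7* were lower and *flt1* was higher in DNK. Cardiomyocyte markers, which the sort should leave behind, took 1.36% and 0.441% of counts in CtrlK and 0.135% and 0.0177% in DNK. In bulk RNA, fewer cells of a type and less RNA per cell cannot be told apart. The p-values rest on the spread between 2 libraries per group and, through the fit, on spread shared across the tested genes.

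Of the 5 tested rows, 2 rose in DNK, *lpl* and *angptl4*, and none fell (edgeR quasi-likelihood test, Benjamini-Hochberg adjusted p under 0.05 over all 17151 tested genes). At an unadjusted p under 0.05, and with DESeq2, the counts were likewise 2 higher and 0 lower. Across all tested genes, 4.22% were called higher and 4.23% lower. For 2 of the 5 rows each DNK value exceeded each CtrlK value, against 26.9% of all tested genes, and for 1 row, *fabp3*, each DNK value was the lower one, against 28.6%. The median log2 fold change of the 5 rows was 0.34, and that of all tested genes was −0.02.

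**Figure D1:**
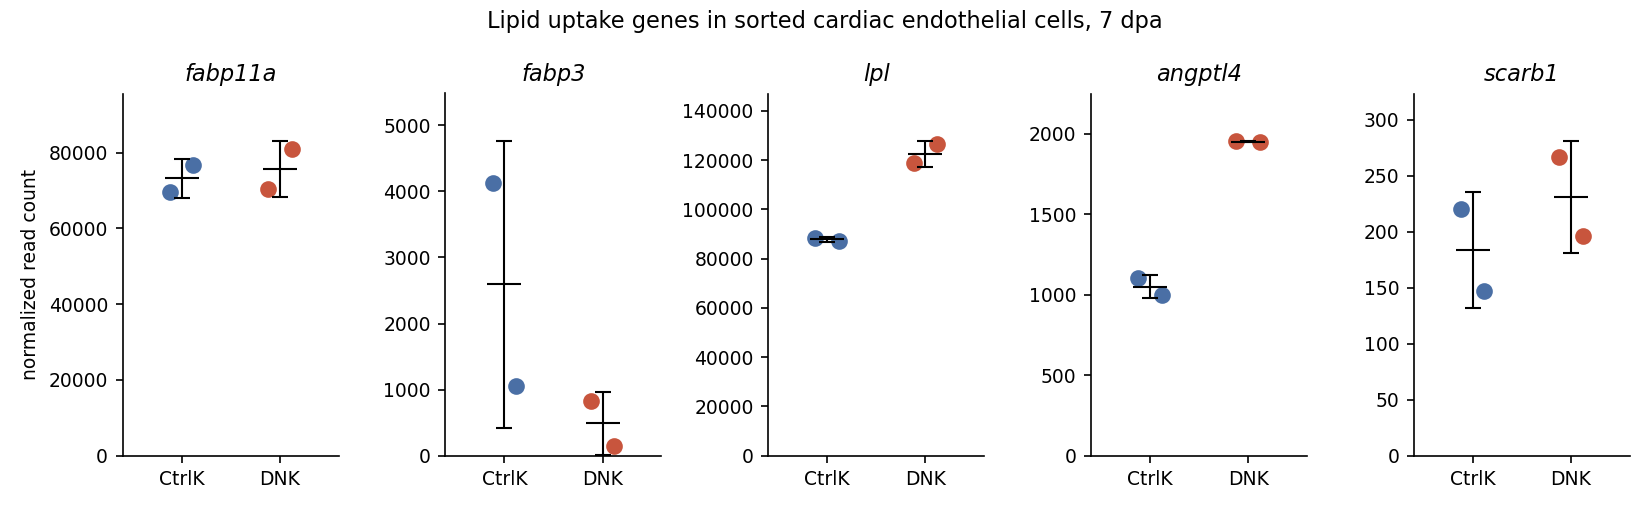
Normalized read counts of the 5 tested lipid uptake genes in each library, with a separate linear vertical axis from 0 for each gene. Points are libraries (blue CtrlK, red DNK), and black lines give the mean ± SD of 2 libraries per group. The groups are apart for *lpl* and *angptl4*, the points of *fabp11a* and *scarb1* overlap, and the spread of *fabp3* within CtrlK, from 1061 to 4130, is wider than the gap between the nearest libraries of the groups.

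*lpl* (ENSDARG00000087697), the lipase that releases fatty acids at the vessel wall, was higher in the DNK libraries. The raw read counts were 77271 and 93072 in the CtrlK libraries and 127516 and 125793 in the DNK libraries. After scaling for library size and composition, the normalized counts were 87860 ± 952 (SD, n = 2) in CtrlK and 122600 ± 5317 (SD, n = 2) in DNK. The replicates of each group lay close together, and the gap between groups was several times their spread. The log2 fold change was 0.48 (SE 0.05, edgeR adjusted p = 0.0030), with a 95% interval of 1.28- to 1.53-fold. The call was kept whichever single library was dropped, with log2 fold changes between 0.44 and 0.53. *lpl* reads made up between 0.307% and 0.473% of all counts of a library.

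The second row matched to *lpl* (ENSDARG00000098720) had 1 count in DNK1 and 0 in the other libraries and was not tested. The symbol table gives both rows the same human-style name, so which zebrafish copy each one is was not resolved. Only uniquely mapped reads were counted, which would lower the counts of both rows if their sequences were nearly the same.

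*angptl4* (ENSDARG00000035859), which encodes the secreted protein that unfolds and inactivates lipoprotein lipase, was also higher in DNK. Its raw counts were 963 and 1067 in CtrlK and 2098 and 1939 in DNK. The normalized counts were 1051 ± 73.4 (SD, n = 2) and 1952 ± 5.35 (SD, n = 2), so that each DNK library stood well above each CtrlK library. The log2 fold change was 0.89 (SE 0.13, edgeR adjusted p = 0.0087), with a 95% interval of 1.50- to 2.30-fold, and this call too was kept whichever library was dropped. The enzyme gene and the inhibitor gene thus rose together. The libraries held 80.2 and 87.2 *lpl* counts per *angptl4* count in CtrlK and 60.8 and 64.9 in DNK, and the difference between the fold changes of *lpl* and *angptl4* was not tested.

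**Figure D2:**
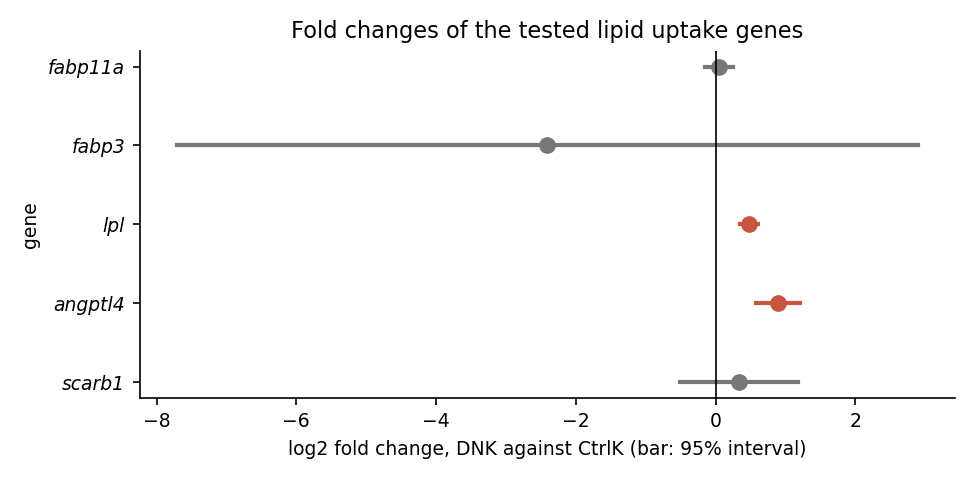
Log2 fold changes of DNK against CtrlK for the 5 tested genes, with 95% intervals from the edgeR fit. Red marks the genes called at an adjusted p under 0.05 and grey the others; the intervals of *lpl* and *angptl4* lie to the right of 0, that of *fabp11a* is short and spans 0, and that of *fabp3* runs from −7.71 to 2.89.

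Both differences were also present when the genes were set against the endothelial markers of the same library. Per 1000 counts of the 13 endothelial markers there were 491 and 455 *lpl* counts in CtrlK and 712 and 739 in DNK. For *angptl4* the values were 6.12 and 5.22 in CtrlK and 11.7 and 11.4 in DNK. The groups did not overlap in either ratio. Of the 13 markers, 9 had a negative log2 fold change, 3 were called lower and 1 higher. The ratios therefore also carry changes of the markers. In normalized counts, each DNK value exceeded each CtrlK value for 26.9% of all tested genes.

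Markers of other cell types in which *lpl* can be active moved in part with these differences. The summed share of 10 epicardial and fibroblast markers was 0.268% and 0.315% in CtrlK and 0.413% and 0.443% in DNK. By edgeR 4 were higher, namely 3 collagen I genes and *pdgfra*, and 0 were lower. The defining genes *tcf21*, *tbx18*, *wt1b* and *lum* had at most 62 counts in any library, and *aldh1a2* and *dcn* did not pass the test. Of the 9 tested markers, 4 had a negative log2 fold change, and for 3 each DNK value was below each CtrlK value. At an unadjusted p under 0.05 and with DESeq2, 4 were higher and 1, *tbx18*, was lower. Macrophage markers took 0.322% and 0.356% of counts in CtrlK and 0.430% and 0.380% in DNK, and none of 9 was called by edgeR (2 were higher and 1 lower at an unadjusted p under 0.05, and 1 and 1 with DESeq2). Of these 9 markers, 5 had a negative log2 fold change, and their median was −0.03. The 7 adipocyte markers took 0.0774% and 0.0812% of counts in CtrlK and 0.183% and 0.222% in DNK, almost all of it from the complement factor gene *cfd*, while the defining genes *plin1*, *cidec* and both *ADIPOQ* rows had at most 25 counts in any library. The part of these cell types in the higher *lpl* and *angptl4* counts was not tested. Over all tested genes, edgeR called 4.22% higher and 4.23% lower.

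Lipoprotein lipase itself, other lipases and proteins that act on lipoprotein lipase were followed in a list of 20 rows, of which 12 were tested. DNK had 4 of the 12 higher, *lpl* and *angptl4* included, and 0 lower, where 4.22% and 4.23% of all tested genes were. The list counts were the same at an unadjusted p under 0.05 and with DESeq2, with a median log2 fold change of 0.11. The largest of these changes belonged to a row named LMF2 (ENSDARG00000025859), a relative of the factor LMF1 that folds lipases in the endoplasmic reticulum, with 128 and 111 counts in CtrlK against 441 and 452 in DNK (log2 fold change 1.79, SE 0.30, edgeR adjusted p = 0.015). Its call was lost without CtrlK2 or without DNK2 (adjusted p = 0.061 and 0.069, edgeR), at a log2 fold change of at least 1.56.

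A row named FURIN (ENSDARG00000062909), a proprotein convertase that in mammals cleaves angiopoietin-like proteins and lipases, had 1117 and 1543 counts in CtrlK against 4132 and 3926 in DNK (log2 fold change 1.52, SE 0.12, edgeR adjusted p = 0.00083). The second row of each name did not pass the test. Nor did *lmf1*, the gene of the factor LMF1 itself (log2 fold change −0.08, SE 0.53, edgeR adjusted p = 0.96). Syndecan-4 (*sdc4*), a cell surface heparan sulfate proteoglycan, had a log2 fold change of −0.23 (SE 0.10, edgeR adjusted p = 0.21). Endothelial lipase (*lipg*) had no count in any library, and *gpihbp1*, which anchors lipoprotein lipase to capillaries in mammals, was matched by no row.

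Among 6 tested members of the angiopoietin-like family, *angptl4* and *angptl2b* were higher and none was lower, where 4.22% of all tested genes were higher and 4.23% lower. The *angptl2b* counts were 3916 and 4594 in CtrlK and 10047 and 9278 in DNK (log2 fold change 1.09, SE 0.09, edgeR adjusted p = 0.00077).

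*fabp11a* (ENSDARG00000017299), listed in RefSeq as *fabp4a* with *fabp11a* as a synonym, is the zebrafish relative of the endothelial and adipocyte carrier FABP4. It did not pass the test. Its raw counts were 60686 and 82024 in CtrlK and 75481 and 80561 in DNK, and its normalized counts were 73180 ± 5167 (SD, n = 2) and 75660 ± 7481 (SD, n = 2). The groups overlapped, and reads of this gene made up between 0.241% and 0.303% of each library. The log2 fold change was 0.05 (SE 0.08, edgeR adjusted p = 0.80), and its 95% interval of 0.902- to 1.19-fold was the narrowest after that of *lpl*. The sign was not settled: it turned to −0.02 without CtrlK1 and to −0.06 without DNK2.

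*fabp3* (ENSDARG00000023290), which encodes the heart-type carrier, had the lowest values in DNK but did not pass the test. Its raw counts were 3605 and 1133 in CtrlK and 884 and 149 in DNK. Both DNK libraries lay below both CtrlK libraries, yet the normalized count differed 3.89-fold between the CtrlK libraries and 5.50-fold between the DNK libraries. The log2 fold change was −2.41 (SE 1.43, edgeR adjusted p = 0.47), with a 95% interval from −7.71 to 2.89. Without a filter on low counts the same row had a log2 fold change of −2.40 (SE 0.18) and an adjusted p of 5.35e-38 by edgeR. The counts of the row, and so the spread between its replicates, were the same in both fits. The smaller SE without the filter therefore does not reflect that spread, and this adjusted p is not taken as a call. With DESeq2 the adjusted p was 0.24.

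The order of the 4 libraries in *fabp3* was that of cardiomyocyte RNA. The summed share of 11 cardiomyocyte markers, among them the myosin light chain gene *myl7* and the cardiac actin gene *actc1a*, was 1.36%, 0.441%, 0.135% and 0.0177% of counts in CtrlK1, CtrlK2, DNK1 and DNK2. Of these markers, 9 lay lower in both DNK libraries than in both CtrlK libraries, against 28.6% of all tested genes. None of the markers was called by edgeR (1 was lower at an unadjusted p under 0.05, and 5 with DESeq2), and their median log2 fold change was −3.66. Per 1000 cardiomyocyte marker counts there were 10.6 and 8.92 *fabp3* counts in CtrlK and 23.3 and 31.6 in DNK. Set against the muscle markers, *fabp3* was therefore higher in DNK, where set against all counts it was lower. The part of cardiomyocyte RNA in the *fabp3* counts was not tested.

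**Figure D3:**
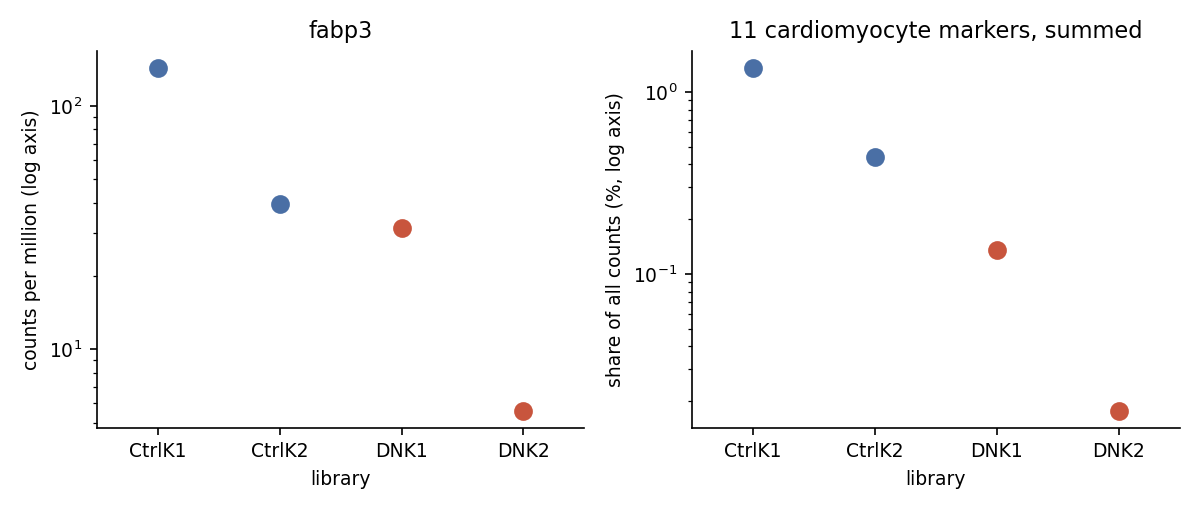
*fabp3* in CPM, the count scaled to a common library total (left), and the summed share of 11 cardiomyocyte markers in percent of all counts (right), both on log axes, for each library (blue CtrlK, red DNK). Both run in the order CtrlK1, CtrlK2, DNK1, DNK2, with the marker share going from 1.36% to 0.0177%.

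The rest of the fatty acid binding protein family was close to absent. Of 10 rows of the family, only *fabp11a* and *fabp3* were tested, and 4 rows had no count in any library, *fabp4b* among them. The highest count in the other rows was 68, in DNK1, for a row named FABP7 (ENSDARG00000034650), the brain-type carrier.

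*cd36* (ENSDARG00000032639), the translocase that takes up long-chain fatty acids in mammalian cardiac endothelium, had 0 counts in all 4 libraries. At these depths a count of 0 allows up to 3 counts, or between 0.104 and 0.119 CPM (counts scaled to a common library total), for counting error only. *cd36* reads were thus not detectable here in either group, and no fold change can be given.

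*scarb1* (ENSDARG00000101557), the high-density lipoprotein receptor, was detected in every library at a low count. The raw counts were 192 and 157 in CtrlK and 286 and 195 in DNK, and the normalized counts were 184 ± 51.6 (SD, n = 2) and 231 ± 49.99 (SD, n = 2). The groups overlapped. The log2 fold change was 0.34 (SE 0.36, edgeR adjusted p = 0.64) and its 95% interval ran from 0.705- to 2.26-fold, so that these libraries leave both a lower and a clearly higher level possible.

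Among 18 tested rows of lipoprotein and scavenger receptors, *scarb1* included, 1 was higher and 1 was lower by edgeR, where 4.22% and 4.23% of all tested genes were. At an unadjusted p under 0.05 the list counts were 4 and 5, and with DESeq2 3 and 3. The median log2 fold change was 0.15. The receptor genes *vldlr* (94, 19, 2 and 0 counts in CtrlK1, CtrlK2, DNK1 and DNK2) and *lrp8* (34, 51, 3 and 0), which bind very-low-density lipoprotein and apolipoprotein E, were lower with DESeq2 (adjusted p = 0.0033 and 0.0125) but not with edgeR (adjusted p = 0.065 and 0.082). The *vldlr* counts ran in the library order of the cardiomyocyte markers above, and those of *lrp8* did not. The part of cardiomyocyte RNA in the counts of both receptor genes was not tested. In the other direction, *colec12* had 402 and 329 counts in CtrlK against 1140 and 673 in DNK. For *stab1* the counts were 4591 and 5910 against 7103 and 6362. *colec12* and *stab1* were higher with DESeq2 (adjusted p = 0.0047 and 0.039) but not with edgeR (adjusted p = 0.057 and 0.12). *stab2*, an endothelial scavenger receptor that clears hyaluronan, had 196 and 189 counts in CtrlK against 496 and 412 in DNK (log2 fold change 1.13, SE 0.27, edgeR adjusted p = 0.047). *scarb2a*, of the family of lysosomal membrane protein SCARB2, had 3638 and 4969 counts in CtrlK against 3082 and 3125 in DNK (log2 fold change −0.55, SE 0.11, edgeR adjusted p = 0.029). Each call was lost whichever single library was left out, at adjusted p of up to 0.18 for *stab2* and 0.13 for *scarb2a* (edgeR). Among 8 tested genes of cholesterol efflux and high-density lipoprotein, which include *scarb1*, *npc1*, the exporter of cholesterol from lysosomes, was higher (3491 and 4885 against 9126 and 8443 counts, log2 fold change 0.99, SE 0.10, edgeR adjusted p = 0.0018). The transporter gene *abcg2a* was lower (2160 and 2142 against 800 and 855 counts, log2 fold change −1.48, SE 0.16, edgeR adjusted p = 0.0025). Other transporter genes of this list did not pass the test, namely a row named ABCA1 (log2 fold change −0.42, SE 0.19, edgeR adjusted p = 0.25) and *abca1b* (log2 fold change 0.07, SE 0.33, edgeR adjusted p = 0.93).

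A list of fatty acid transport and activation genes gave 0 of 13 tested rows higher and 1 lower by edgeR, at an unadjusted p under 0.05 and with DESeq2 alike. It held fatty acid transport proteins and acyl-CoA synthetases, which trap fatty acids inside the cell, and also rows named MFSD2A, GOT2 and *got2b*. No tested row of a fatty acid transport protein or an acyl-CoA synthetase was called. Over all tested genes, edgeR called 4.22% higher and 4.23% lower. The lower row was one named MFSD2A (ENSDARG00000035909), a transporter of lysophospholipid in brain endothelium, with 607 and 823 counts in CtrlK and 347 and 309 in DNK (log2 fold change −1.21, SE 0.20, edgeR adjusted p = 0.015). Its call was lost without CtrlK2 or without DNK2 (adjusted p = 0.074 and 0.058, edgeR). Of the 9 tested genes of caveolae, the membrane pits in which CD36 can lie, 2 were higher and 1 was lower, against the same shares of all tested genes. *cav2* was higher (log2 fold change 0.58, SE 0.08, edgeR adjusted p = 0.0082), and a row named CAVIN1 (ENSDARG00000059362), a coat protein of caveolae, was lower, with 2921 and 4610 counts in CtrlK and 1306 and 1426 in DNK (log2 fold change −1.53, SE 0.16, edgeR adjusted p = 0.0023). The other higher row, named CAVIN2 (ENSDARG00000071196), had a log2 fold change of 0.32 (SE 0.07, edgeR adjusted p = 0.047) and was not called with any single library left out.

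Among factors known to control lipid uptake in endothelium or fatty acid use in other tissues, more were lower than higher. Of 31 tested regulators, 8 were lower and 1 was higher in DNK, where 4.23% and 4.22% of all tested genes were. The list mixes factors that raise uptake with factors that limit it. The 8 lower rows include *apln*, *aplnra* and *aplnrb*, genes of a signal that limits uptake in mouse endothelium. A negative log2 fold change was found for 25 of the 31, against 51.7% of all tested genes, and the median was −0.40. Each DNK value was below each CtrlK value for 15 of the 31, against 28.6% of all tested genes. The list was chosen with earlier results of these data known, so its comparison with all tested genes is a description only. Some of its rows, such as *ppargc1a* (196, 70, 16 and 0 counts in CtrlK1, CtrlK2, DNK1 and DNK2) and PPARA (105, 86, 45 and 18), ran in the library order of the cardiomyocyte markers. So did *rxrga* (987, 832, 160 and 106), which is among the 8 rows called lower. The share of all tested genes with this order is not given here. The part of cardiomyocyte RNA in these rows was not tested. With CtrlK1, CtrlK2, DNK1 or DNK2 left out, 5, 3, 4 and 6 regulators were called lower.

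**Figure D4:**
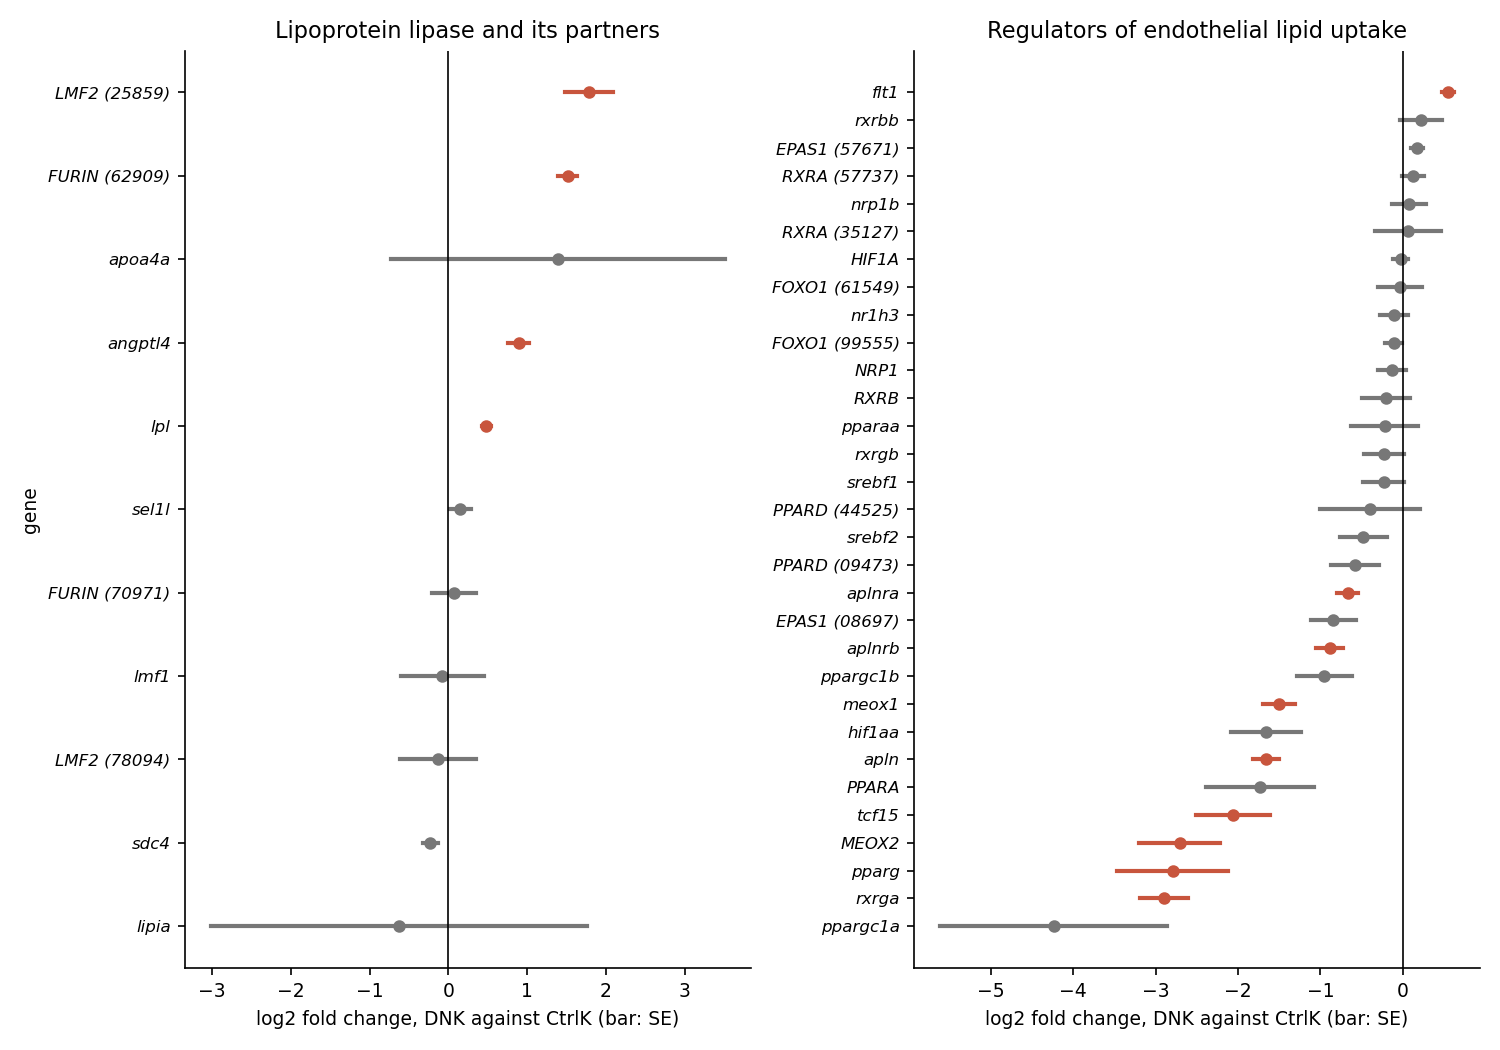
Log2 fold changes of DNK against CtrlK for 11 of the 12 tested genes of the lipoprotein lipase list (left) and the 31 tested regulators of endothelial lipid uptake (right), with bars of ± SE. Red marks genes called at an adjusted p under 0.05 and grey the others; digits in brackets are the last of the gene identifier where rows share a name. The 4 called genes on the left lie above 0 and 8 of the 9 on the right below it, with *flt1* the exception.

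Transcription factors of the Meox2 and Tcf15 pair were among the lower genes. A row named MEOX2 (ENSDARG00000040911) had 139 and 287 counts in CtrlK and 28 and 39 in DNK (log2 fold change −2.71, SE 0.49, edgeR adjusted p = 0.020). Its paralog *meox1* had 809 and 1205 counts in CtrlK and 397 and 353 in DNK (log2 fold change −1.50, SE 0.19, edgeR adjusted p = 0.0050). *tcf15* had 130 and 203 counts in CtrlK and 46 and 38 in DNK (log2 fold change −2.06, SE 0.45, edgeR adjusted p = 0.036). Every DNK library was below every CtrlK library for each of these 3 genes, as for 28.6% of all tested genes. The MEOX2 call was lost without CtrlK2 or without DNK1 (adjusted p = 0.13 and 0.067, edgeR), that of *tcf15* whichever library was left out (adjusted p of up to 0.19), and that of *meox1* was kept in each case.

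Nuclear receptors were lower in part. *rxrga*, a retinoid X receptor of the kind that pairs with PPARs, had 987 and 832 counts in CtrlK and 160 and 106 in DNK (log2 fold change −2.90, SE 0.29, edgeR adjusted p = 0.0018), and its call was kept with each library left out. *pparg* had 94 and 96 counts in CtrlK and 11 and 18 in DNK (log2 fold change −2.79, SE 0.67, edgeR adjusted p = 0.049), and its call was lost whichever library was left out. The rows of *pparaa*, PPARA and PPARD did not pass the test, nor did the other retinoid X receptors. The *rxrga* counts ran in the library order of the cardiomyocyte markers, but with a smaller spread within each group. The normalized *rxrga* count differed 1.45-fold between the CtrlK libraries and 1.40-fold between the DNK libraries. The marker share was 1.36% and 0.441% in CtrlK and 0.135% and 0.0177% in DNK. The part of cardiomyocyte RNA in the *rxrga* counts was not tested.

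Apelin signaling, which in mouse endothelium limits fatty acid uptake by way of FABP4, was lower at the ligand and at both receptors. The ligand gene *apln* had 2243 and 2836 counts in CtrlK and 776 and 921 in DNK (log2 fold change −1.67, SE 0.16, edgeR adjusted p = 0.0015). The receptor gene *aplnrb* had a log2 fold change of −0.89 (SE 0.16, edgeR adjusted p = 0.021) and *aplnra* one of −0.67 (SE 0.13, edgeR adjusted p = 0.023). *apln* kept its call with each library left out, *aplnrb* lost it without CtrlK2 or DNK1 (adjusted p = 0.082 and 0.056, edgeR), and *aplnra* kept it only without DNK2 (adjusted p of up to 0.089). *apln* and *aplnra* also served here as markers of coronary endothelium, and together took 0.0182% and 0.0196% of counts in CtrlK and 0.00869% and 0.0102% in DNK. The other matched gene of the coronary list, *fabp11a*, was left out of this sum because it is described above. It did not pass the test (log2 fold change 0.05, SE 0.08, edgeR adjusted p = 0.80). The 7 endocardial markers took 0.307% and 0.346% of counts in CtrlK and 0.317% and 0.308% in DNK. The part of a changed share of coronary cells in the lower *apln*, *aplnra* and *aplnrb* counts was not tested. *flt1*, the receptor of Vegfb, which in mice raises endothelial fatty acid transport proteins, was the higher gene of the list, with 8205 and 10272 counts in CtrlK and 14740 and 13944 in DNK (log2 fold change 0.54, SE 0.08, edgeR adjusted p = 0.0069).

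Downstream of uptake, lipid droplet and lipolysis genes gave 1 of 12 tested rows higher and 0 lower by edgeR, where 4.22% and 4.23% of all tested genes were. The list counts were 1 and 1 at an unadjusted p under 0.05 and with DESeq2. The higher gene was *mgll*, the monoacylglycerol lipase (1079 and 1699 against 2697 and 2369 counts, log2 fold change 0.79, SE 0.15, edgeR adjusted p = 0.025), a call kept only without CtrlK2. Genes of mitochondrial fatty acid oxidation gave 0 of 28 higher and 2 lower by edgeR (1 and 7 at an unadjusted p under 0.05, and 0 and 6 with DESeq2), with a median log2 fold change of −0.46. A negative log2 fold change was found for 23 of the 28, against 51.7% of all tested genes, of which 4.23% were called lower. With CtrlK1, CtrlK2, DNK1 or DNK2 left out, 0, 6, 1 and 0 of these genes were called lower. The lower rows were *acaa2*, the thiolase of the last step of the cycle (1118 and 935 against 523 and 513 counts, log2 fold change −1.10, SE 0.22, edgeR adjusted p = 0.028), and one named PDK2 (ENSDARG00000059054), a kinase that turns off pyruvate dehydrogenase (log2 fold change −0.82, SE 0.16, edgeR adjusted p = 0.027). The *acaa2* call was kept only without CtrlK2, and that of PDK2 was lost without CtrlK1 or DNK2. The muscle genes of this list, such as *cpt1b* (921, 167, 364 and 35 counts) and *ucp3* (252, 43, 33 and 1), varied within each group like the cardiomyocyte markers above. Between groups, *cpt1b* was higher in DNK1 than in CtrlK2, unlike the summed marker share. The part of cardiomyocyte RNA in these values was not tested.

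The genes nearest in pattern over the 4 libraries to the 2 called genes were sought among the 13436 tested genes that averaged 50 counts or more. For *lpl* they were DNAJB4, *kcnq5a* and *tspan7*, at root-mean-square distances of 0.010, 0.018 and 0.020 on the log2 scale. For *angptl4* they were *msi2a*, *nr2f1a* and *arfrp1*, at 0.029, 0.030 and 0.031. With 4 libraries, such closeness is a description only.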

How the data were processed

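RNA-seq counts of 2 CtrlK and 2 DNK libraries were used, grouped by their labels. The authors mapped reads with HISAT2 (2.2.1) to GRCz11, kept uniquely mapped reads, counted them on Ensembl genes with featureCounts (2.0.1) and deposited raw counts per gene. Whether counting used strand was not given in the sources used here, so overlapping and antisense genes are uncertain. Symbols came from a table of gene identifiers and from RefSeq synonyms, and 29201 of 32520 rows had one. Upper-case names are human-style names that several zebrafish copies can share.

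Rows passing filterByExpr (17151) were normalized by TMM and tested, two-sided, with edgeR (4.0.16, robust glmQLFit and glmQLFTest, R 4.3.3) with group as the only term and Benjamini-Hochberg adjustment over all of them. This filter stood in for the FPKM filter of the study. DESeq2 (1.42.0), other normalizations and filters, a replicate block and leaving out each library were alternatives. Both fits were tested on simulated data. Normalized counts were raw counts scaled by effective (TMM) library size to the average library. Totals ranged from 25189862 to 28770727. Figures used Matplotlib (3.10.9).

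The members, lists and markers were chosen with earlier results of these data known, so their shares set beside those of all tested genes are a description only. From each list at most 6 called genes averaging 50 counts or more were named, smallest adjusted p first. *aplnra*, *tcf15* and *pparg* fall outside this rule, as do genes named without passing the test and list genes given as examples, and they were chosen after their values were seen. One list gene is counted but not reported here.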

Additional observations from a re-analysis of the deposited data

How the results depend on the processing

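*lpl* and *angptl4* stayed higher with an adjusted p under 0.05 in all 7 alternative fits of the 4 libraries and with each library left out. Across all genes, the counts of higher and lower calls were 723 and 726, and became 1271 and 1432 with DESeq2, 1315 and 1775 without a filter on low counts, 271 and 223 at an adjusted p under 0.01, and from 354 to 425 and from 328 to 567 with one library left out. The log2 fold change of *fabp11a* ran from −0.056 to 0.15 with one library left out, and that of *fabp3* from −4.11 to −1.12. CtrlK1 and DNK1 share a number and not a pool of fish, and the correlation of their deviations from the group means was 0.09. With a replicate block the calls were 747 higher and 894 lower, and *fabp3* had a log2 fold change of −2.56 (edgeR adjusted p = 0.00028). With DESeq2, 6 fatty acid oxidation genes were called lower in place of 2. The cause of these changes was not tested. With 2 libraries per group, differences of *scarb1* inside its interval and *cd36* levels under 3 counts lie below what these data can show.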
